A study of Homo sapiens with 24 samples.

Results

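Chromosome 19 carries 244 protein-coding genes whose GENCODE symbol is ZNF followed by digits, of the 57736 genes in the count table, and these zinc finger genes were followed across all 8 groups of RNA-seq libraries. A further 256 protein-coding ZNF genes lie on other chromosomes. Most of the chromosome 19 genes encode KRAB zinc finger proteins, which bind DNA through tandem C2H2 fingers and, through the KRAB domain, recruit the corepressor TRIM28. TRIM28 in turn brings the methyltransferase SETDB1, HP1 proteins and histone deacetylases, so that the bound site becomes repressed, H3K9-methylated chromatin, and many of these proteins bind transposable elements. The genes arose by repeated tandem duplication and stand in arrays, and the 3′ parts of many of them are themselves known to carry H3K9 trimethylation and to be occupied by ATRX. ATRX, a chromatin remodeler, and DAXX, a histone chaperone, together deposit the histone variant H3.3.

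The cells were U87-T, the human glioblastoma line U87 transduced with TERT. WT cells of both series carried the empty Cas9 vector (sgCon), and DAXX_KO and ATRX_KO were each 1 single-cell CRISPR clone that had acquired features of the alternative lengthening of telomeres, so that the effect of a knockout and that of its clone cannot be told apart. The DAXX series and the ATRX series each held WT and KO cells, labelled untreated or treated with etoposide, a topoisomerase inhibitor that breaks DNA, with 3 QuantSeq 3′-end libraries in each of 4 groups. No dose or time of etoposide is given in the labels, and they do not say whether the 3 libraries came from separate cultures, although the study describes its experiments in general as biologically replicated. P-values measure the spread between these libraries. The titles were followed for the DAXX_KO libraries, whose genotype tag names ATRX.

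Counts per library ranged in the DAXX series from 6928950 to 10410014 and in the ATRX series from 10124817 to 13298557. Values are given as CPM, which scales counts to a common TMM-adjusted library total within each series, and 3 counts, the floor used here, came to 0.216 to 0.405 CPM, a limit that covers counting error only. DAXX mRNA was 33.7 ± 1.30 CPM in WT and 5.80 ± 1.06 CPM in DAXX_KO control cells (SD, n = 3), and ATRX mRNA was 191 ± 4.62 CPM in WT and 80.5 ± 6.07 CPM in ATRX_KO. VIM and CD44, mesenchymal genes of glioblastoma lines, had group means of 1616 to 5664 and 360 to 1043 CPM. GFAP, the astrocyte marker, did not exceed 0.249 CPM. SOX2, a neural progenitor gene, was at 4.26 CPM in WT and 0.112 CPM in ATRX_KO control cells (log2 fold change −5.14 ± 0.48, edgeR adjusted p = 2.27e-07) and at 1.60 and 0.335 CPM in the DAXX series (−2.20 ± 0.76, edgeR adjusted p = 0.0193), and OLIG2, an oligodendrocyte lineage gene, was at 0.741 CPM in WT and 0 in DAXX_KO. The part of these differences between clones in the results below was not tested. PTPRC, CD3E, EPCAM and RBFOX3, markers of leukocytes, T cells, epithelium and neurons, had group means of at most 1.26, 0.161, 1.72 and 2.41 CPM.

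Taking genes less than 1 Mb apart as neighbours, and requiring at least 5 genes, the ZNF genes formed 9 subclusters, C1 to C9 from the short-arm to the long-arm end, plus 11 isolated genes. In GRCh37 coordinates, C1 held 5 genes (chr19:2819866-2944969), C2 held 15 (chr19:7069714-9903856), C3 held 25 (chr19:11594242-12750912) and C4 held 37 (chr19:19779605-24312770). On the long arm, C5 held 5 genes (chr19:35168544-35455133), C6 held 26 (chr19:36673178-38307940), C7 held 23 (chr19:44029649-45579736), C8 held 39 (chr19:52074536-54083523) and C9 held 58 (chr19:55987984-58992597). The products of these genes carried a median of 12 C2H2 finger motifs, counted in the coding sequence of 240 genes (range 1 to 36), against 9 in the ZNF genes of other chromosomes.

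The promoters of 4 genes on which the results below turn are printed here as the 250 bases before the annotated start, from GRCh37, 5′ to 3′ on the gene's own strand, with each CpG in capitals. ZNF260 (chr19:37019174-37019423, minus strand), ZNF569 (chr19:37958347-37958596, minus strand) and ZNF571 (chr19:38085694-38085943, minus strand) lie in C6 and were at or near 0 in WT but expressed in ATRX_KO, and ZNF382 (chr19:37095965-37096214, plus strand) is a C6 neighbour that was near 0 in all control libraries.
ZNF260: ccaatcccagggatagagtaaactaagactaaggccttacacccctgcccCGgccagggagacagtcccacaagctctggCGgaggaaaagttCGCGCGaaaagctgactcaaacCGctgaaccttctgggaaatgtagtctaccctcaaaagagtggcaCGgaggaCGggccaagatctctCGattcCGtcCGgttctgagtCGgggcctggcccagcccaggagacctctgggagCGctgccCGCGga
ZNF569: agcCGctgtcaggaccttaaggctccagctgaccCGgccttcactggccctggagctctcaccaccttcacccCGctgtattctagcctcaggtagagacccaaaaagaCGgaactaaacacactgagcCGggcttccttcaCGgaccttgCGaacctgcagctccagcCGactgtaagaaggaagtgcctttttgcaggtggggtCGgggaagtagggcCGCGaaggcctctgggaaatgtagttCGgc
ZNF571: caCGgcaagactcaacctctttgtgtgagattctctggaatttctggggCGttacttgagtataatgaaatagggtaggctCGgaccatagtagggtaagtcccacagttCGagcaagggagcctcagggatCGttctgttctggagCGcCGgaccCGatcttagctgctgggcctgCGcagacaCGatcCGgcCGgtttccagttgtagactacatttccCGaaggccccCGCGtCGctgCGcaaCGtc
ZNF382: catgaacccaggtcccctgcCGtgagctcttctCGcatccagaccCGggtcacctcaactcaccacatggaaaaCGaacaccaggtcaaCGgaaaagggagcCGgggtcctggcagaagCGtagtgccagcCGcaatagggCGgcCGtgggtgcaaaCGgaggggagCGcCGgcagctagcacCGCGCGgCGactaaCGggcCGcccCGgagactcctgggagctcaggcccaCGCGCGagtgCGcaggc
These windows held 15, 12, 18 and 24 CpG on the strand shown (a CpG reads the same on both strands). Of 19110 promoters of the same length, 60.9%, 67.6%, 52.9% and 34.3% held as many, and the median was 18.

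In control cells without etoposide, DAXX_KO and ATRX_KO were each set against WT of the same series, to ask how these genes differed in each knockout clone. Expression of the 244 genes was low. Their median was 1.61 CPM in WT of the DAXX series and 1.54 CPM in WT of the ATRX series, and 155 and 158 genes were above 3 counts in every library of these groups. In ATRX_KO the median was 2.78 CPM, with 193 genes above 3 counts throughout, and in DAXX_KO it was 1.47 CPM, with 151 genes. Summed over all 244 genes, ATRX_KO held 1558 ± 50.7 CPM against 1305 ± 29.0 in its WT, and DAXX_KO held 1209 ± 2.86 CPM against 1307 ± 39.1 (SD, n = 3). In bulk libraries, fewer cells expressing a gene and less RNA per cell cannot be told apart.

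Of the 244 genes, 194 passed the count filter of the ATRX series, and 50 did not. Some passed only through ATRX_KO, since 23 of the 194 were not above 3 counts throughout either WT group. By edgeR's quasi-likelihood test at an FDR of 0.05, 73 zinc finger genes (37.6% of those tested) were higher in ATRX_KO and 22 (11.3%) were lower, with a median log2 fold change of 0.38. Over all 16371 genes tested, 20.8% were higher and 21.0% lower. Of the 209 tested ZNF genes of other chromosomes, 25.4% were higher and 11% lower, so the small share lower was not particular to chromosome 19. Counted with no filter, the 3 ATRX_KO libraries were all above the 3 WT libraries for 84 of the 244 genes (34.4%) and all below for 31 (12.7%). Among all 19391 protein-coding genes the shares were 18.8% above and 19.3% below, and among ZNF genes of other chromosomes 28.9% and 11.7%. Restricted to the 157 tested genes above 3 counts in every WT control library, a choice made after the values were seen, 45 were higher and 22 lower, with a median of 0.20.

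The DAXX series differed. Of 160 genes tested (84 did not pass the filter, and 5 of those tested were not above 3 counts throughout either WT group), 25 (15.6%) were higher in DAXX_KO and 32 (20%) were lower, with a median log2 fold change of −0.09. Over all 15247 genes tested, 26.9% were higher and 26.5% lower. Scaling by library totals alone gave 34 higher and 25 lower and a median of 0.09, and moved the median of all genes to 0.20. Without a filter, the DAXX_KO libraries were all above WT for 31 of the 244 genes (12.7%) and all below for 46 (18.9%), against 21.7% above and 22.0% below among protein-coding genes.

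**Figure D1:**
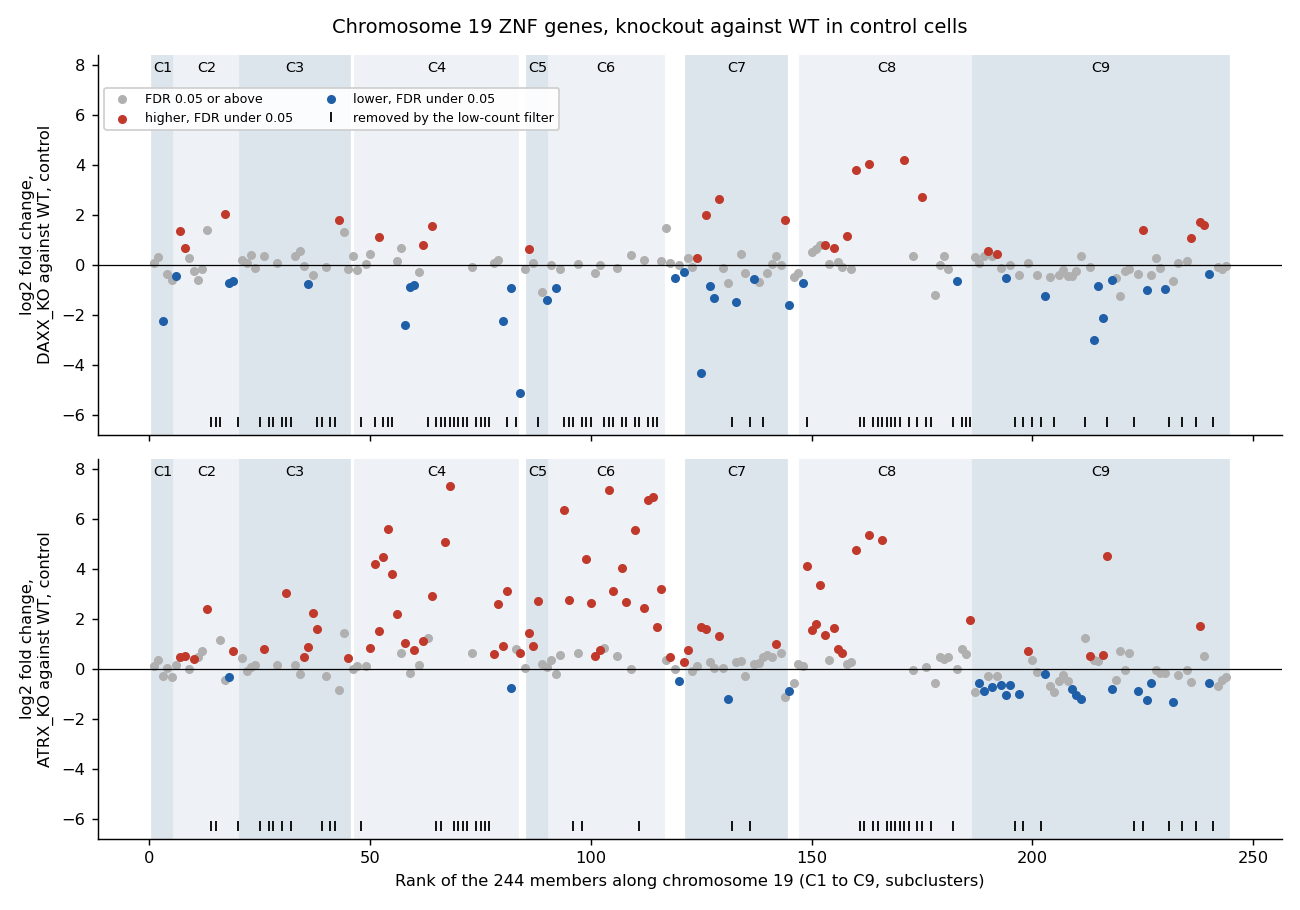
Log2 fold change of each tested chromosome 19 ZNF gene (vertical axis) against its rank in position along the chromosome (horizontal axis, 244 genes), in ATRX_KO and in DAXX_KO against WT in control cells, with subclusters C1 to C9 shaded, genes called higher by edgeR at an FDR of 0.05 in red and lower in blue, and ticks at the bottom for genes removed by the filter. The called genes of C6 all lie above 0 in ATRX_KO, where 16 were higher and 0 lower, and most called genes of C9 lie below 0, where 5 were higher and 17 lower.

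The differences between ATRX_KO and WT varied with position along the chromosome. In C6, 16 of 23 tested genes were higher in ATRX_KO and 0 were lower, with a median log2 fold change of 2.64 (2.41 with the 5 genes that were at or under the floor in WT set at their lower bound). The shares of all genes tested were 20.8% higher and 21.0% lower. With no filter, 17 of the 26 C6 genes (65.4%) had all ATRX_KO libraries above all WT libraries, and 0 had all below. Among all protein-coding genes these shares were 18.8% and 19.3%. The 13 C6 genes above 3 counts in every WT library included 6 that were higher and 0 that were lower, with a median of 0.64. Summed over C6, the WT libraries ranged from 91.9 to 94.8 CPM and the ATRX_KO libraries from 183 to 198 CPM, with no overlap. In DAXX_KO, 0 of 10 tested C6 genes were higher and 1 was lower, against 26.9% and 26.5% of all genes.

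ZNF260, which encodes a protein made almost wholly of zinc fingers (ENSG00000254004, chr19:37001589-37019173, minus strand), was at 0.078, 0.085 and 0.169 CPM in the WT control libraries and at 9.81, 10 and 9.60 CPM in ATRX_KO. In no control library of the DAXX series did it exceed 0.131 CPM. The WT values lay at or under the floor and the ATRX_KO values far above it, at least 38.6-fold higher (edgeR adjusted p = 1.56e-10). Its promoter, printed above, has an intermediate CpG count. ZNF569 was at 0.311, 0.254 and 0.085 CPM in WT and at 11.7, 11.3 and 8.81 CPM in ATRX_KO (log2 fold change 5.53, SE 0.32, edgeR adjusted p = 7.38e-10). Its WT counts were 4, 3 and 1, near the floor, so the size of the change is uncertain. ZNF570, whose annotated start lies 1912 bases from that of ZNF569 and which is read from the other strand, was at 0 in all WT libraries and at 0.174, 0 and 0 CPM in ATRX_KO, so that this neighbour stayed at or under the floor.

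ZNF571 and ZNF540 start 84 bases apart, head to head. Counts in WT were 0 for ZNF540 in each library, while ATRX_KO had 1.04, 1.25 and 1.03 CPM, at least 4.36-fold higher. ZNF571 was at 0.078, 0 and 0 CPM in WT and at 4, 5.01 and 4.28 CPM in ATRX_KO, at least 17.4-fold higher. Thus both genes of this pair were detected only in ATRX_KO among the control groups, apart from single low values of ZNF571. ZNF829 and ZNF568, another head-to-head pair with starts 41 bases apart, did not move to the same extent. ZNF829 rose from 6.45, 5.68 and 5.24 CPM to 11.4, 10.5 and 7.70 CPM (log2 fold change 0.76 ± 0.18, edgeR adjusted p = 0.00235). ZNF568, the human relative of a mouse repressor of placental Igf2 transcripts, was at 0.854, 0.848 and 0.423 CPM in WT and 0.782, 1.09 and 1.90 CPM in ATRX_KO, groups that overlapped (edgeR adjusted p = 0.127).

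ZNF420, also called APAK and described as a repressor of p53 target genes, was at 0 in ATRX series WT control libraries and at 2.08, 0.835 and 1.51 CPM in ATRX_KO, at least 5.80-fold higher. With etoposide ZNF420 was at 0.369, 0.286 and 0 CPM in WT and at 11.6, 9.67 and 12.9 CPM in ATRX_KO. ZNF850 was at 0.233, 0.254 and 0.085 CPM in WT and at 4.17, 4.51 and 3.81 CPM in ATRX_KO, at least 16.4-fold higher. Both genes were separated completely between WT and ATRX_KO.

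Several C6 genes that WT cells already expressed were also higher. ZNF793 was at 9.24, 7.80 and 10.1 CPM in WT and at 49.1, 51.7 and 43.3 CPM in ATRX_KO (log2 fold change 2.41 ± 0.15, edgeR adjusted p = 1.16e-09), while in DAXX_KO it was at 11.9, 13.3 and 12.2 CPM against 11.6, 10.3 and 11.1 in WT. ZNF573 was at 1.63, 1.27 and 0.423 CPM in WT and at 9.38, 13.2 and 8.65 CPM in ATRX_KO (3.20 ± 0.30, edgeR adjusted p = 2.54e-07). The other C6 genes called higher were ZNF529, ZNF790, ZNF345, ZNF585A, ZNF383, ZNF875 and ZNF607, with log2 fold changes of 0.51 to 4.01. Of these, ZNF585A, ZNF383, ZNF875 and ZNF607 were not above 3 counts in every WT library, so the size of their changes is uncertain.

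The rise did not take in every gene of C6. ZNF382, a gene described as a silenced tumor suppressor, was at 0 in all WT control libraries of the ATRX series and at 0.087, 0 and 0 CPM in ATRX_KO, and ZNF567 was likewise at or near the floor in every control group. ZNF146, which encodes a protein of fingers with no KRAB domain, was at 56.8, 53.0 and 49.4 CPM in WT and at 44.8, 41.3 and 50.8 CPM in ATRX_KO (log2 fold change −0.22 ± 0.11, edgeR adjusted p = 0.129). In the DAXX series ZNF146 fell from 55.1, 45.1 and 50.9 CPM to 27.5, 24.4 and 27.5 CPM (−0.93 ± 0.15, edgeR adjusted p = 2.86e-05), without overlap. ZNF146 lies at the short-arm edge of C6, beside ZNF565, whose WT and ATRX_KO libraries overlapped.

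**Figure D2:**
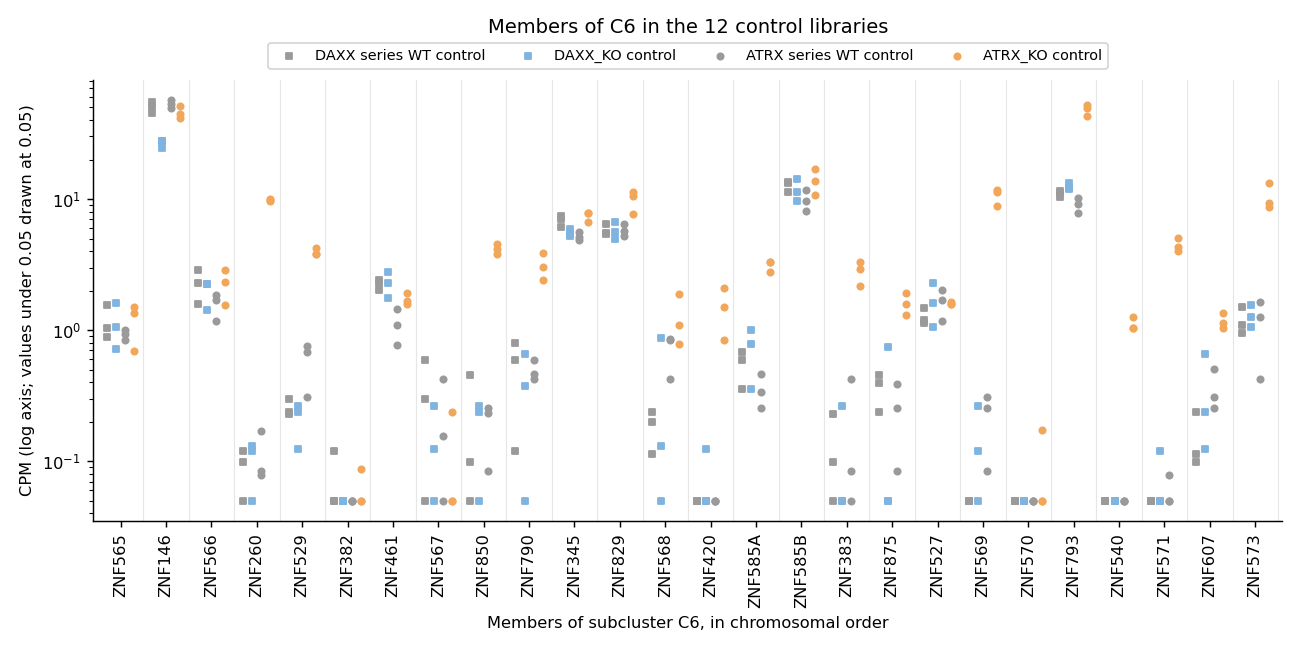
CPM of the C6 genes in control libraries of the ATRX and DAXX series, 1 point per library, genes in chromosomal order and CPM on a log axis, with values under 0.05 CPM drawn at 0.05. ATRX_KO points stand apart from WT for ZNF260, ZNF569, ZNF571 and ZNF793, while ZNF382 and ZNF570 stay at the bottom of the axis in all groups.

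C4, near the centromere, is rich in primate-specific genes. In ATRX_KO 17 of 26 tested C4 genes were higher and 1 was lower, against 20.8% and 21.0% of all genes, with a median log2 fold change of 1.06. With no filter 21 of 37 genes lay above WT and 2 below, against 18.8% and 19.3% of all protein-coding genes. Among the 17 genes above 3 counts in every WT library, 10 were higher and 1 was lower (median 0.75). Summed over C4, expression was 131 ± 4.47 CPM in WT and 219 ± 5.42 CPM in ATRX_KO. In DAXX_KO, 3 of 17 tested genes were higher (17.6%) and 5 lower (29.4%), with a median of 0.01, against 26.9% and 26.5% of all genes. The C4 sum was 108 ± 4.94 CPM in DAXX_KO against 135 ± 12.4 in WT.

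ZNF91, known as a repressor of SVA retrotransposons, was at 2.25, 1.44 and 3.21 CPM in WT and at 18.2, 14.2 and 9.04 CPM in ATRX_KO (log2 fold change 2.58 ± 0.27, edgeR adjusted p = 7.16e-07). ZNF93, known as a repressor of L1 elements, was at 0.078, 0.170 and 0.423 CPM in WT and at 3.65, 4.18 and 4.60 CPM in ATRX_KO (4.17 ± 0.52, edgeR adjusted p = 5.61e-06). The WT counts of ZNF93 were 1, 2 and 5, near the floor, so the size of its change is uncertain. Neither gene's WT libraries reached its ATRX_KO libraries. In DAXX_KO, ZNF91 was at 1.37, 2.36 and 2.39 CPM against 1.38, 1.94 and 2.15 in WT (0.17 ± 0.35, edgeR adjusted p = 0.710), and ZNF93 did not pass the filter.

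Other C4 genes showed the same direction in ATRX_KO. ZNF43 was at 0.311, 0.254 and 0.169 CPM in WT and at 9.38, 7.52 and 8.96 CPM in ATRX_KO (log2 fold change 5.07 ± 0.37, edgeR adjusted p = 1.05e-08). Its WT counts, 4, 3 and 2, were near the floor, so the size of the change is uncertain. ZNF486 was at 0.233, 0.085 and 0 CPM in WT and at 5.47, 6.01 and 5.63 CPM in ATRX_KO, at least 22.4-fold higher. ZNF90, chosen after its values were seen, was at 0.388, 0.254 and 0.592 CPM in WT and at 8.86, 10.4 and 8.33 CPM in ATRX_KO, but in the DAXX series it went from 0.593, 0.800 and 1.19 CPM in WT to 0.250, 0.131 and 0 in DAXX_KO. The ZNF90 libraries thus separated upward in ATRX_KO and downward in DAXX_KO.

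ZNF85 and ZNF675 were called in opposite directions in the knockouts. ZNF85 fell from 4.05, 3.66 and 3.22 CPM to 0.374, 1.18 and 0.478 CPM in DAXX_KO (log2 fold change −2.42 ± 0.39, edgeR adjusted p = 2.97e-05) and rose from 3.49, 3.31 and 3.38 CPM to 7.64, 7.18 and 5.71 CPM in ATRX_KO (1.01 ± 0.22, edgeR adjusted p = 0.00124). ZNF675, also known as TIZ, an inhibitor of TRAF6 signaling, fell from 6.72, 7.09 and 5.72 CPM to 1.37, 0.657 and 2.03 CPM in DAXX_KO (−2.24 ± 0.35, edgeR adjusted p = 2.28e-05) and rose from 6.06, 5.85 and 5.24 CPM to 10.6, 9.44 and 11.7 CPM in ATRX_KO (0.89 ± 0.18, edgeR adjusted p = 0.000941). The WT levels of both genes were alike in the series, and the knockout libraries lay on opposite sides of them. By contrast, ZNF493 rose in both knockouts (1.53 ± 0.37 in DAXX_KO and 2.89 ± 0.19 in ATRX_KO) and ZNF726 fell in both (−0.93 ± 0.26 and −0.76 ± 0.21).

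The C8 genes called in ATRX_KO were all higher, and in DAXX_KO the rise of the C8 sum rested largely on ZNF480. Of 25 tested genes, 12 were higher and 0 lower in ATRX_KO (median log2 fold change 0.61, or 0.59 with genes at the floor in WT set at their bound), and 7 of 21 were higher and 2 lower in DAXX_KO (median 0.36). The ATRX_KO share higher was 48%, against 20.8% of all genes. Among the 19 genes above 3 counts in every WT library, 7 were higher and 0 lower in ATRX_KO (median 0.47). With at least 10 counts in every library, 4 of 12 were higher in ATRX_KO and the median was 0.38. The DAXX_KO share higher, 33.3%, was near the 26.9% of all genes, and with at least 10 counts in every library 4 of 14 were higher and the median was 0.08. With no filter, 15 of the 39 genes lay above WT and 0 below in ATRX_KO, and 7 lay above and 2 below in DAXX_KO. Among all protein-coding genes 18.8% lay above and 19.3% below in ATRX_KO, and 21.7% and 22.0% in DAXX_KO. Summed over C8, expression was 114 ± 3.91 CPM in WT and 197 ± 6.67 CPM in ATRX_KO, and 121 ± 3.54 CPM in WT and 151 ± 4.06 CPM in DAXX_KO. Without ZNF480, a sum added after its values were seen, the 38 other genes held 114 ± 4.08 CPM in WT and 177 ± 4.86 in ATRX_KO, but 119 ± 3.92 CPM in WT and 123 ± 0.650 in DAXX_KO. Of the other protein-coding genes that lie within C8, 5 were tested. In DAXX_KO 4 of these were higher and 0 lower (median 1.29), and in ATRX_KO 1 was higher and 1 lower (median −0.07).

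ZNF480 had the lowest adjusted p of the C8 genes in each knockout. In the DAXX series ZNF480 was at 2.27, 2.29 and 1.43 CPM in WT and at 30.0, 30.6 and 23.4 CPM in DAXX_KO (log2 fold change 3.78 ± 0.19, edgeR adjusted p = 5.59e-12). In the ATRX series it was at 0.854, 0.932 and 0.423 CPM in WT and at 21.1, 21.4 and 17.8 CPM in ATRX_KO (4.74 ± 0.22, edgeR adjusted p = 4.44e-11). The WT cells of the series themselves differed for this gene, by −1.48 ± 0.31 for the ATRX series against the DAXX series (edgeR adjusted p = 0.00221), but the knockout libraries stood well above both. Its neighbour ZNF528 also rose in both. ZNF528 was at 0.099, 0.114 and 0 CPM in WT and at 1.5, 1.18 and 1.55 CPM in DAXX_KO, at least 3.94-fold higher, and it went from 0.078, 0.339 and 0 CPM to 4.86, 6.68 and 6.27 CPM in ATRX_KO (5.33 ± 0.43, edgeR adjusted p = 3.45e-08). The ATRX series WT counts of ZNF528 were 1, 4 and 0, so the size of that change is uncertain.

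ZNF28 did not exceed the floor in any WT control library of either series and exceeded it in each control library of both knockouts, the only zinc finger gene of chromosome 19 for which this held. In DAXX_KO it was at 1.5, 1.45 and 1.79 CPM against 0.198, 0 and 0 in WT, at least 4.41-fold higher. In ATRX_KO its counts were 4, 7 and 5, close to the floor, at least 1.74-fold higher than in WT. ZNF808, a gene required for human pancreas development, was at 0.155, 0.085 and 0 CPM in WT and at 3.13, 3.51 and 3.25 CPM in ATRX_KO, at least 13-fold higher. Of its last 500 transcript bases 47.9% are shared with another gene, so its reads are less certainly its own. ZNF331, an imprinted gene, was near the floor in WT and at 0.521, 1.00 and 0.476 CPM in ATRX_KO (log2 fold change 1.95 ± 0.61, edgeR adjusted p = 0.0164), and ZNF816 was called higher in DAXX_KO (2.72 ± 0.97, edgeR adjusted p = 0.0235) on libraries that stood at 0, 0 and 0.835 CPM in WT and 1.25, 2.23 and 1.91 CPM in DAXX_KO.

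C9, the array at the end of the long arm, moved the other way in ATRX_KO. Of 49 tested genes, 5 were higher (10.2%) and 17 lower (34.7%), against 20.8% and 21.0% of all genes, with a median log2 fold change of −0.44. With no filter 24 of the 58 genes (41.4%) lay below WT and 7 (12.1%) above, against 19.3% and 18.8% of all protein-coding genes. The sum over C9 was 395 ± 16.5 CPM in WT and 305 ± 11 CPM in ATRX_KO. Other protein-coding genes that lie within C9 moved likewise, with 0 higher and 8 lower of 18 tested and a median of −0.45. In DAXX_KO, 6 of 46 tested C9 genes were higher and 9 lower (median −0.19). The share lower, 19.6%, was below the 26.5% of all genes. Scaled by library totals alone, 9 were higher and 6 lower, with a median of −0.00. The C9 sum was 311 ± 14.1 CPM in DAXX_KO against 372 ± 5.64 in WT, a fall that includes that of ZNF264, given below.

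The decreases called in C9 had log2 fold changes of −1.35 (ZNF256) to −0.21 (ZNF264). ZNF749 fell from 6.91, 7.54 and 5.67 CPM to 2.00, 3.76 and 2.86 CPM in ATRX_KO (log2 fold change −1.22 ± 0.23, edgeR adjusted p = 0.000393), while in the DAXX series it was at 7.21, 8.80 and 6.20 CPM in WT and 10.7, 8.80 and 8.48 CPM in DAXX_KO. ZNF17 fell from 5.82, 8.73 and 5.67 CPM to 3.21, 3.17 and 3.25 CPM (−1.06 ± 0.21, edgeR adjusted p = 0.000524). ZNF524 fell from 10.2, 8.56 and 11.8 CPM to 5.38, 5.10 and 5.95 CPM (−0.89 ± 0.17, edgeR adjusted p = 0.000555). In all 3 genes the WT and ATRX_KO libraries did not overlap.

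ZNF552 fell in both knockouts, with log2 fold changes of −1.01 ± 0.31 in DAXX_KO (edgeR adjusted p = 0.0102) and −1.24 ± 0.27 in ATRX_KO (edgeR adjusted p = 0.00157), and ZNF530 did so with −0.63 ± 0.26 and −0.82 ± 0.26. ZNF583 was at 3.49, 3.73 and 4.40 CPM in WT and at 1.91, 2.00 and 1.75 CPM in ATRX_KO (−1.03 ± 0.24). ZNF787 was called lower in ATRX_KO (−1.04 ± 0.25, edgeR adjusted p = 0.00285) and in DAXX_KO (−0.55 ± 0.14, edgeR adjusted p = 0.00308), although its ATRX series libraries, 16.9, 33.8 and 41.1 CPM in WT and 20.5, 12.5 and 11.7 CPM in ATRX_KO, overlapped. Against the trend, ZNF497 rose in both knockouts (1.71 ± 0.45 and 1.69 ± 0.48). ZNF416 went from at or under the floor in WT to 0.608, 0.752 and 1.19 CPM in ATRX_KO.

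C9 also held genes that fell mainly in DAXX_KO. ZNF773 fell from 4.74, 4.80 and 4.77 CPM to 0.874, 0.525 and 0.358 CPM (log2 fold change −3.00 ± 0.33, edgeR adjusted p = 2.28e-07). ZNF264, chosen after its values were seen, fell from 61.3, 60.9 and 56.8 CPM to 22.7, 25.3 and 27.4 CPM (−1.25 ± 0.09, edgeR adjusted p = 4.94e-10), while in ATRX_KO the change was −0.21 ± 0.08 (edgeR adjusted p = 0.0452). ZNF550 fell from 4.45, 3.20 and 3.34 CPM to 1.12, 0.788 and 0.597 CPM in DAXX_KO (−2.12 ± 0.39, edgeR adjusted p = 0.000121) and was called higher in ATRX_KO (0.54 ± 0.21, edgeR adjusted p = 0.0473), a call lost under 11 alternatives. These 3 genes had no overlap between WT and DAXX_KO. ZNF671 was the C9 gene that appeared in DAXX_KO, at 1.25, 1.45 and 0.836 CPM against at most 0.119 CPM in WT, at least 3.29-fold higher, and it stayed at 0 in ATRX_KO.

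**Figure D3:**
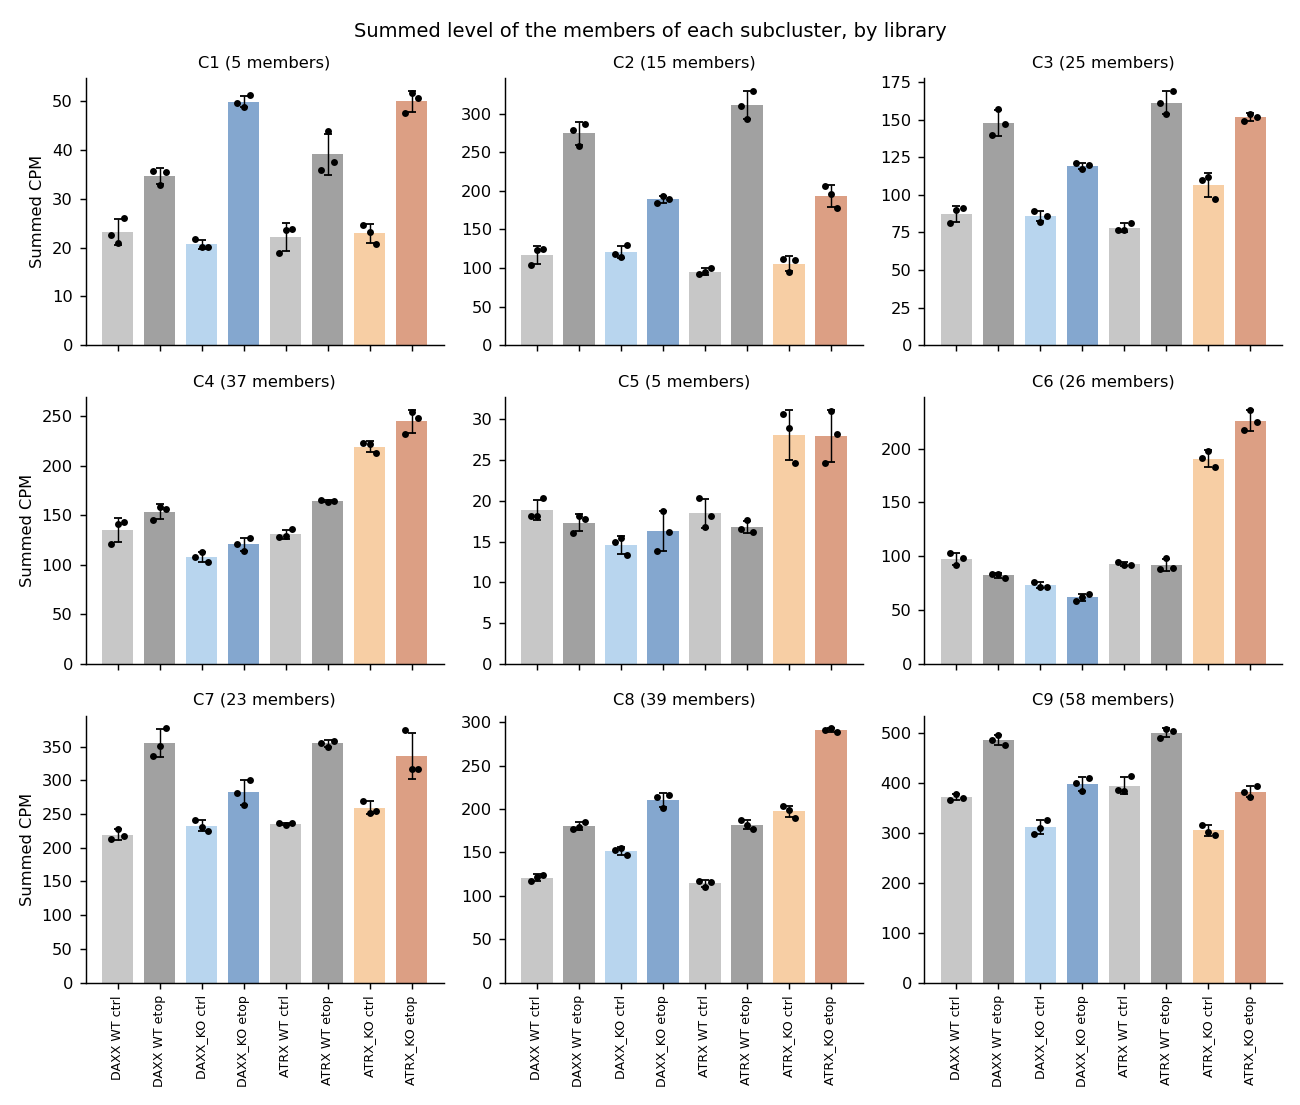
Summed CPM (linear axis from 0) of the zinc finger genes of each subcluster in the 8 groups, with bars for the mean of 3 libraries, error bars for the SD and points for single libraries. In the control cells of the ATRX series, C6 lies at 183 to 198 CPM in ATRX_KO against 91.9 to 94.8 CPM in WT. The C9 sum of control cells is lower in both knockouts than in their WT, and in DAXX_KO it includes the fall of ZNF264.

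In the remaining subclusters the called changes were mixed in direction in DAXX_KO, and in ATRX_KO those of C2, C3, C5 and C7 were mostly upward. ATRX_KO was higher for 0 of 5 tested genes of C1, 5 of 12 of C2, 7 of 17 of C3, 3 of 5 of C5, 5 of 21 of C7 and 3 of 11 isolated genes, and lower for 0, 1, 0, 0, 1 and 2 of them. Over all genes 20.8% were higher and 21.0% lower, so the share higher in C7, 23.8%, was near that of all genes. DAXX_KO was higher for 0 of 5, 3 of 11, 1 of 15, 1 of 4, 4 of 20 and 0 of 11 and lower for 1, 3, 1, 1, 5 and 4, against 26.9% and 26.5% of all genes. ZNF121 of C2, whose product binds MYC, rose in DAXX_KO from 6.12, 4.23 and 5.49 CPM to 21.2, 23.8 and 20.7 CPM (log2 fold change 2.04 ± 0.15, edgeR adjusted p = 1.14e-09). ZNF155 of C7 rose from 0.889, 0.571 and 1.07 CPM to 5.49, 4.07 and 6.09 CPM in DAXX_KO (2.61 ± 0.32, edgeR adjusted p = 9.33e-07) and by 1.29 ± 0.35 in ATRX_KO (edgeR adjusted p = 0.00698). Both genes were separated from WT in DAXX_KO.

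ZNF404 of C7 was called higher in both knockouts (1.97 ± 0.59 and 1.57 ± 0.49), and ZNF222 of C7 lower in ATRX_KO (−1.21 ± 0.34). ZNF564 of C3 was called higher in DAXX_KO (1.77 ± 0.53), but it overlaps 3 other genes on its strand and 18.5% of its last 500 transcript bases are shared. ZNF136 of C3 was called lower in DAXX_KO (−0.76 ± 0.23) and higher in ATRX_KO (0.86 ± 0.22). ZNF556 of C1 fell from 2.27, 1.49 and 2.38 CPM to 0.125, 0.657 and 0.478 CPM in DAXX_KO (−2.26 ± 0.51, edgeR adjusted p = 0.000877), and ZNF792 of C5 from 10.6, 9.26 and 11.7 CPM to 4.12, 4.07 and 3.46 CPM (−1.43 ± 0.20, edgeR adjusted p = 6.6e-06). WT and DAXX_KO did not overlap in either.

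Among genes outside the arrays or with known roles, ZNF541, which acts in male meiosis, fell in both knockouts. It went from 15, 17.4 and 18.0 CPM to 5.74, 6.70 and 4.18 CPM in DAXX_KO (log2 fold change −1.60 ± 0.18, edgeR adjusted p = 2.93e-07) and from 17.2, 13.5 and 15.1 CPM to 7.47, 9.11 and 7.93 CPM in ATRX_KO (−0.90 ± 0.14, edgeR adjusted p = 9.13e-05). ZNF536, a regulator of neuronal differentiation, fell from 2.37, 1.26 and 2.27 CPM to 0.125, 0 and 0 CPM in DAXX_KO (edgeR adjusted p = 1.93e-05), and was called higher in ATRX_KO (0.62 ± 0.23, edgeR adjusted p = 0.0412, lost under 9 alternatives), but 99.8% of its last 500 bases are shared with another gene. ZNF274, which brings SETDB1 to the 3′ ends of ZNF genes, rose in DAXX_KO from 3.56, 2.17 and 3.10 CPM to 4.74, 6.96 and 6.69 CPM (1.05 ± 0.27, edgeR adjusted p = 0.00320) and changed by −0.54 ± 0.29 in ATRX_KO (edgeR adjusted p = 0.146). Of the repressors of HERV-K elements, ZNF417 fell in DAXX_KO (−0.99 ± 0.28, edgeR adjusted p = 0.00499), whereas ZNF587 was at 28.5, 29.3 and 26.7 CPM in WT and 23.6, 25.0 and 27.7 CPM in DAXX_KO, with overlap. ZNF224, a KRAB repressor of the aldolase A gene, was not called in either knockout.

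**Figure D4:**
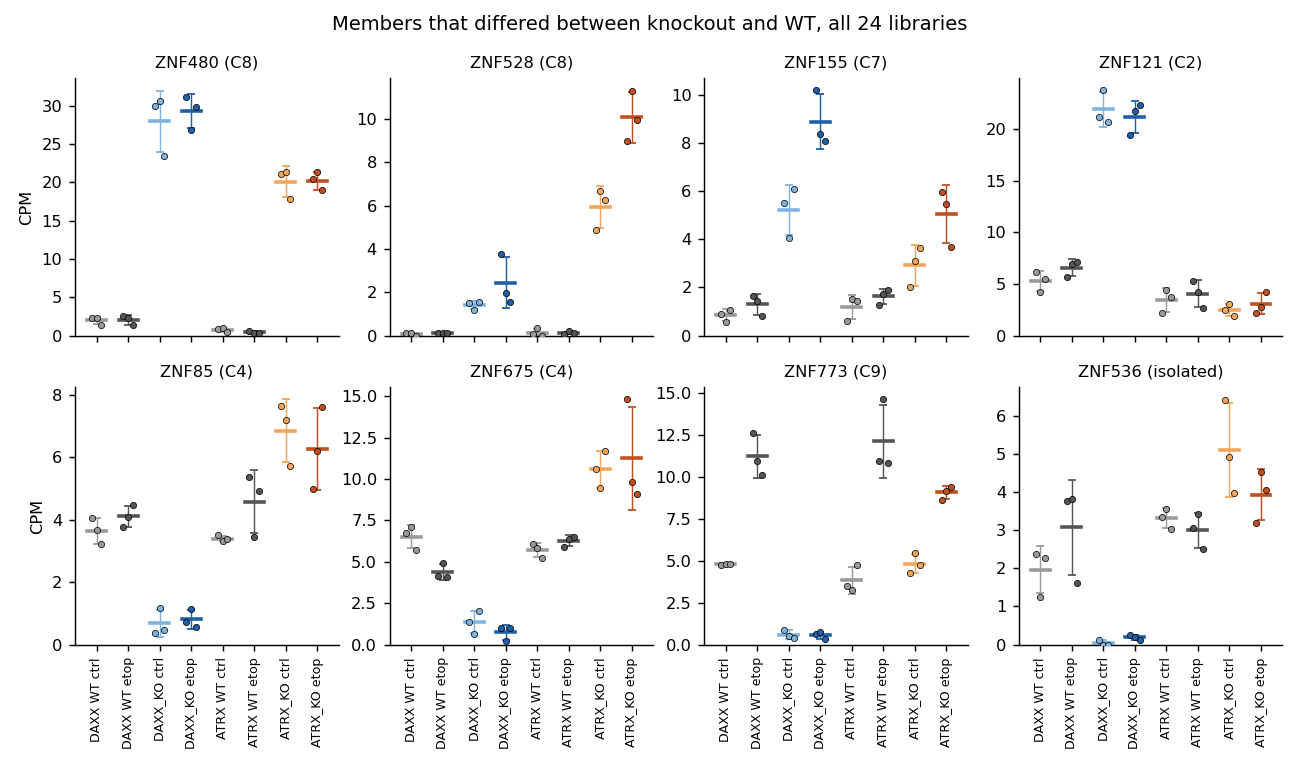
CPM (linear axis from 0) of ZNF480, ZNF528, ZNF155, ZNF121, ZNF85, ZNF675, ZNF773 and ZNF536 in the 8 groups, with points for single libraries, a line for the mean of 3 and error bars for the SD. ZNF480 and ZNF528 stand above WT in both knockouts, while ZNF85 and ZNF675 stand below WT in DAXX_KO and above it in ATRX_KO in control cells.

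Genes going from undetected to detected were counted without any filter, as those that never exceeded 3 counts in the WT control libraries and always did so in the KO control libraries. In ATRX series WT 54 of the 244 genes were at or under the floor, and 14 of them (25.9%) were detected throughout ATRX_KO, while among all protein-coding genes at or under the floor the share was 1.92%, or 120 of 6245. These 14 were ZNF433, ZNF486, ZNF737, ZNF208, ZNF260, ZNF850, ZNF420, ZNF540, ZNF571, ZNF577, ZNF808, ZNF28, ZNF331 and ZNF416, of which ZNF208 shares all of its last 500 transcript bases with another gene. C6 gave 5 of its 7 undetected genes (71.4%), C4 gave 3 of 13 and C8 gave 4 of 17. Among ZNF genes of other chromosomes the count was 5 of 47 (10.6%), and among other protein-coding genes of chromosome 19 it was 5 of 421 (1.19%). All 14 were also above 3 counts in every ATRX_KO etoposide library, and 9 of them were at or under the floor in all WT etoposide libraries.

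In the DAXX series 64 genes were at or under the floor in WT and 3 (4.69%), ZNF528, ZNF28 and ZNF671, were detected throughout DAXX_KO, against 2.35% of protein-coding genes (155 of 6594). In the reverse direction, ZNF90, ZNF254, ZNF536 and ZNF283 were above 3 counts in every WT library and at or under 3 counts in every DAXX_KO library, and 0 genes did so in ATRX_KO. ZNF254 was at 0.494, 0.571 and 0.835 CPM in WT and at 0 in DAXX_KO, so the levels lost were low. WT ZNF254 of the ATRX series was at 0.932, 0.170 and 0.761 CPM and ATRX_KO at 0.608, 1.09 and 1.59 CPM, which overlapped.

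CpG content was described for the promoters of 241 genes. The median was 15 CpG in the 250 bases before the start, against 19 for other protein-coding genes and 19 for ZNF genes of other chromosomes. By subcluster the median was 9 in C4, 18.5 in C6, 18 in C8 and 19 in C9. In C6 the 5 genes newly detected in ATRX_KO had 15 to 25 CpG (median 19), the 2 that stayed undetected, ZNF570 and ZNF382, had 22 and 24, and the 13 expressed in WT had a median of 18. In C4 the 3 newly detected genes had 7 CpG each, and those expressed in WT had a median of 9. The lowest median was thus that of C4, and in C6 the newly detected genes lay within the range of the others.

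The knockouts were also set against each other in a fit of all 24 libraries, as the difference of their log2 fold changes. Of 195 genes tested, 16 had a higher and 54 a lower effect in DAXX_KO than in ATRX_KO, with a median difference of −0.46, while over all 16674 genes 17.0% were higher and 17.2% lower. Genes near 0 in the DAXX series that entered this fit through ATRX_KO could hardly be called other than lower. Among the 157 genes tested in both series, a restriction made after the values were seen, 16 were higher and 40 lower. In C6 the counts among these were 0 higher and 5 lower of 10, in C4 0 and 8 of 17, in C8 1 and 7 of 19, and in C9 10 and 5 of 45. Between the WT control cells of the series 9 of the 195 genes differed, with 3 higher and 6 lower in the ATRX series, against 7.22% and 6.01% of all genes. ZNF480, ZNF561 and ZNF350 were among the 6.

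Because the DAXX and ATRX comparisons use different WT libraries, their calls could be set side by side. Of 157 zinc finger genes tested in both series, 54 were called in DAXX_KO and 69 in ATRX_KO, and 30 were called in both, which is 55.6% and 43.5% of these. Over all genes tested in both, the calls shared were 54.8% of those in DAXX_KO and 67.1% of those in ATRX_KO. Among the 30, 13 were higher in both, 8 were lower in both, 9 were lower in DAXX_KO and higher in ATRX_KO, and 0 were the reverse, while over all genes 415 were lower in DAXX_KO and higher in ATRX_KO and 445 the reverse. Spearman's rho of the log2 fold changes was 0.30 across the 157 genes, and 0.40 across all 15039 genes tested in both, values that are across genes and not across replicates.

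With etoposide in WT cells, the share of these genes called higher was near that of all genes, and the share called lower was smaller. In WT of the DAXX series 50 genes were higher (31.2% of 160) and 11 lower (6.88%), with a median log2 fold change of 0.31, against 30.1% higher and 30.2% lower over all genes. WT of the ATRX series had 72 higher (37.1% of 194) and 8 lower (4.12%) genes, with a median of 0.43, against 31.7% higher and 29.8% lower. Fewer were called either way, 38.1% and 41.2% (DAXX series first) against 60.3% and 61.5% of all genes. Other protein-coding genes of chromosome 19 also leaned upward, with 42.5% higher and 19.5% lower, and 41.2% and 24.9%. So did ZNF genes of other chromosomes, with 32.3% and 18.7%, and 36.4% and 21.5%. Summed over the 244 genes, WT rose from 1307 ± 39.1 to 1856 ± 29.5 CPM in the DAXX series and from 1305 ± 29.0 to 1964 ± 18.2 CPM in the ATRX series. Of 157 genes tested in both, 48 were called in both, 42 of them higher in both, 6 lower in both and 0 in opposite directions.

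ZNF561 of C2 showed the response in either WT. It went from 44.6, 69.5 and 68.9 CPM to 192, 176 and 201 CPM with etoposide in WT of the DAXX series (log2 fold change 1.64 ± 0.13, edgeR adjusted p = 1.32e-09) and from 36.2, 37.2 and 41.1 CPM to 226, 214 and 244 CPM in WT of the ATRX series (2.58 ± 0.13, edgeR adjusted p = 3.87e-11). The sum over C2, which includes ZNF561, went from 95.4 ± 4.13 to 311 ± 17.9 CPM in WT of the ATRX series, whereas in ATRX_KO it went from 106 ± 9.78 to 193 ± 14.5 CPM. ZNF419 of C9 rose from 8.59, 7.77 and 7.51 CPM to 23.5, 32.5 and 22.5 CPM and from 9.09, 7.20 and 9.98 CPM to 28.1, 32.0 and 34.9 CPM in WT of the 2 series. Control and etoposide libraries did not overlap for either gene.

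ZNF564 (log2 fold changes of 2.85 ± 0.49 and 2.45 ± 0.50, DAXX series first), ZNF404 (2.49 ± 0.56 and 2.34 ± 0.47), ZNF551 and ZNF837 were the other named increases in WT. The decreases were led by ZNF726 (−1.48 ± 0.27 and −1.77 ± 0.23), ZNF549 (−1.83 ± 0.33 and −1.46 ± 0.36) and ZNF792 (−1.43 ± 0.20 and −1.29 ± 0.19), followed by ZNF324B, ZNF507 and ZNF146. Among C6 genes above 3 counts in every WT control library, 1 of 10 was higher and 1 lower in the DAXX series, and 2 of 13 were higher and 1 lower in the ATRX series. Over all 23 C6 genes tested in the ATRX series, 3 were higher and 1 was lower. Those outside the 13 rest on few counts in WT control cells. The C6 sum in WT of the ATRX series was 92.9 ± 1.64 CPM in control and 91.7 CPM with etoposide. By the same restriction, made after the values were seen, 7 of 18 and 10 of 19 genes of C8 and 14 of 43 and 16 of 46 of C9 were higher.

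Within DAXX_KO, etoposide was followed by 40 higher (25% of 160) and 7 lower (4.38%) genes, against 27.1% and 27.5% of all genes. Within ATRX_KO it was followed by 63 higher (32.5% of 194) and 5 lower (2.58%), against 24.3% and 25.2%. The test of the interaction took the etoposide effect in KO cells minus that in WT cells. It called 5 of 160 genes in the DAXX series, 2 higher (1.25%) and 3 lower (1.88%), against 8.18% and 5.90% of all genes. For the ATRX series it called 8 of 194 genes, 0 higher and 8 lower, against 8.36% and 7.64%. In the DAXX series ZNF564 had an interaction of −2.56 ± 0.67 (edgeR adjusted p = 0.0134). ZNF486 had −2.33 ± 0.72 in the ATRX series (edgeR adjusted p = 0.0360), but its WT control libraries were at or under the floor, so the value is no measure of size, and the call was lost under 9 alternatives. For ZNF561 the interaction was −0.99 ± 0.18 in the ATRX series (edgeR adjusted p = 0.00159), where ATRX_KO with etoposide was at 101, 93.8 and 74.3 CPM, below all WT etoposide libraries.

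**Figure D5:**
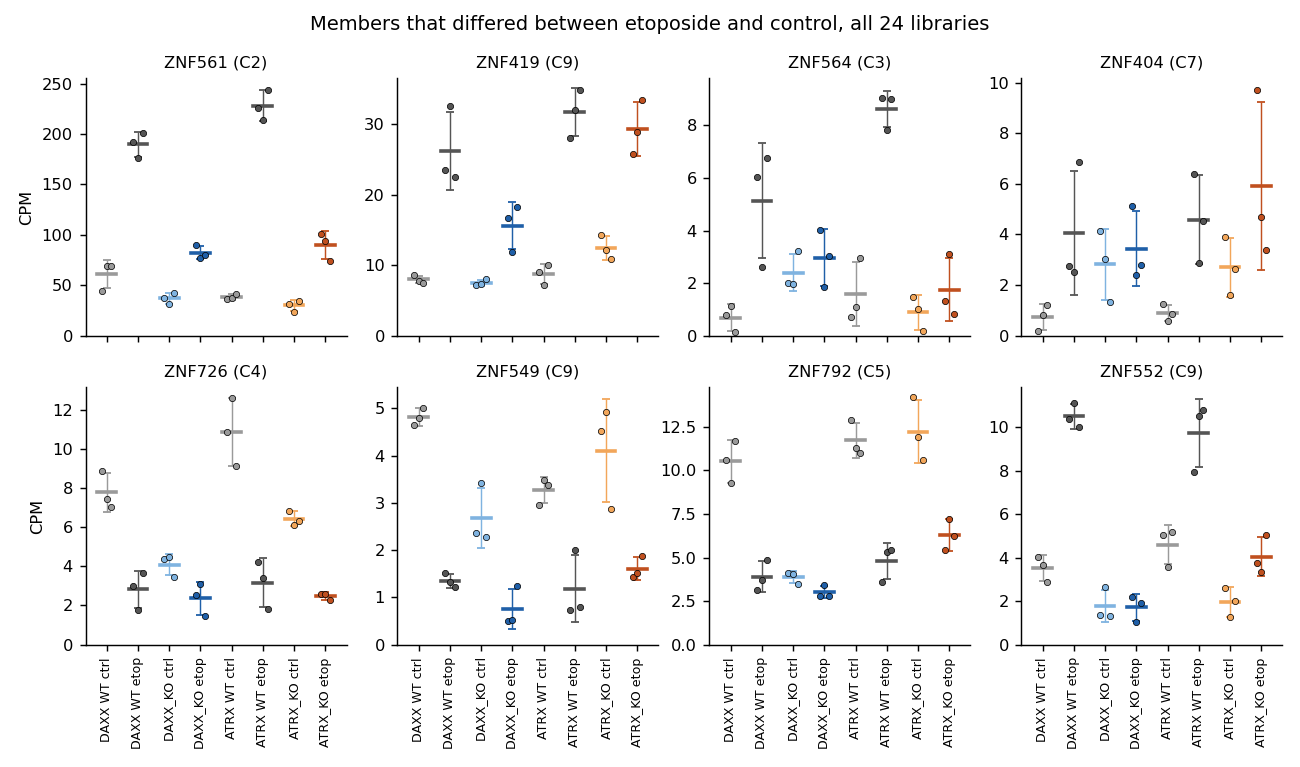
CPM (linear axis from 0) of ZNF561, ZNF419, ZNF564, ZNF404, ZNF726, ZNF549, ZNF792 and ZNF552 in the 8 groups, with points for single libraries, a line for the mean of 3 and error bars for the SD. ZNF561 reaches 214 to 244 CPM in WT of the ATRX series with etoposide and 74.3 to 101 CPM in ATRX_KO.

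Knockout and WT were also compared in the presence of etoposide. In DAXX_KO 24 of 160 tested genes were higher (15%) and 38 lower (23.8%) than in WT, against 27.8% and 25.3% of all genes. In ATRX_KO 63 of 194 were higher (32.5%) and 27 lower (13.9%), against 23.0% and 22.9%. With no filter, C6 had 17 of 26 genes with all ATRX_KO etoposide libraries above all WT etoposide libraries and 0 below, C4 had 19 above and 1 below, C8 had 19 and 2, and C9 had 5 and 26, against 21.7% above and 20.9% below among all protein-coding genes. In these libraries ZNF260 was at 13.2, 14.3 and 13.8 CPM and ZNF569 at 25.5, 25.4 and 27.5 CPM in ATRX_KO. Summed over C6, ATRX_KO held 226 ± 9.73 CPM with etoposide.

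The cofactors through which KRAB proteins act, together with the H3.3 genes, DAXX and ATRX, were followed as a list of 25 genes, of which 24 had a row and 23 were tested. Leaving out DAXX and ATRX, which the knockouts targeted, 6 of 21 were higher and 8 lower in DAXX_KO, where 26.9% of all genes were higher and 26.5% lower. In ATRX_KO 3 of the 21 were higher and 8 lower, against 20.8% and 21.0% of all genes. TRIM28, whose gene lies just beyond the long-arm end of C9 (chr19:59055431-59062089), was at 185 ± 25.3 CPM in WT and 115 ± 18.9 CPM in DAXX_KO (log2 fold change −0.69 ± 0.11, edgeR adjusted p = 1.96e-05), and at 262 ± 14.9 CPM in WT and 111 ± 17.6 CPM in ATRX_KO (−1.24 ± 0.10, edgeR adjusted p = 4.57e-08). The H3.3 genes H3-3A (−0.60 in DAXX_KO and −0.99 in ATRX_KO) and H3-3B (−1.38 and −0.67) were also lower in both, while SETDB1 was at 25.4 ± 4.23 CPM in WT and 23.9 ± 0.940 CPM in ATRX_KO. With etoposide, 17 of these 21 genes were lower in each WT and 1 and 0 were higher (DAXX series first), while 30.2% and 29.8% of all genes were lower and 30.1% and 31.7% higher. Whether these levels had a part in the changes of the zinc finger genes was not tested.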

How the data were processed

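QuantSeq 3′ mRNA libraries were sequenced by the authors as single-end reads of 75 bases, aligned with STAR to hg19 and counted with RSEM (1.2.3 in the submitters' processing notes) on Ensembl GRCh37, and the authors tested them with DESeq2. The deposited values are estimated counts, given as whole numbers and not normalized, for 57736 genes. Whether counting used strand is not given in the sources used here, and 103 of the 244 genes overlap another gene on the same strand. Gene symbols, positions and transcripts came from GENCODE release 44 on GRCh37, which matched 55501 gene IDs. No p-values or fold changes of the authors were used.

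Counts were tested with edgeR 4.0.16 in R 4.3.3 (TMM, filterByExpr with a minimum count of 10 and total of 15, quasi-likelihood F-test, Benjamini-Hochberg adjustment over all tested genes, FDR 0.05), with the 12 libraries of a series in 1 model of 4 groups and all 24 libraries in 1 model of 8 groups for differences between series. The 2 series had common biological coefficients of variation of 0.0826 (DAXX) and 0.106 (ATRX). Bounds on folds set the group at the floor to 3 counts in its shallowest library. A finger motif was a C2H2 pattern (2 to 5 residues between cysteines, 12 to the first histidine, 3 to 5 between histidines). The models were tested on simulated data. matplotlib 3.10.9 under Python 3.11.15 drew the figures.

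Replicates of a group differed by 2.15 to 17.2 chi-square units per degree of freedom over 24 pairs, so no library was a repeat of another. Libraries that share a replicate number had correlations of their deviations of −0.216 to 0.049 over 36 pairs and were not treated as pairs.

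The zinc finger genes, the lists and the tests were chosen with earlier results of these data known. Genes named were the 8 largest increases and 8 largest decreases in each knockout, the 5 called highest and lowest in both and the 5 in opposite directions, the 6 largest etoposide responses each way, the 4 largest interactions per series (all with at least 1 CPM on average) and 11 genes with known roles. Further genes of C4, C6, C8 and C9 were named after their values had been seen. Alternatives were DESeq2 1.42.0, RLE factors, library totals alone, no filter, at least 10 counts in every library, other libraries in the fit, a replicate block, subclusters split at 0.5 Mb, leaving out each library and, added after seeing the data, genes expressed in WT, genes tested in both series, genes without shared 3′ ends and C8 without ZNF480.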

Additional observations from a re-analysis of the deposited data

Results flagged for a closer look

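Effects that differed between the knockouts, by the test of the difference in the 24-library edgeR fit, are given as the log2 fold change in DAXX_KO minus that in ATRX_KO. Below 0 stood ZNF43 (−6.24), ZNF260 (−6.17), ZNF536 (−5.83), ZNF808 (−4.97), ZNF85 (−3.44), ZNF773 (−3.34), ZNF675 (−3.13), ZNF550 (−2.66), ZNF91 (−2.40), ZNF556 (−1.99), ZNF136 (−1.62), ZNF714 (−1.59), ZNF792 (−1.49), ZNF493 (−1.35), ZNF549 (−1.17), ZNF480 (−0.95), ZNF146 (−0.71) and ZNF541 (−0.70). The values of ZNF43, ZNF260, ZNF536 and ZNF808 rest on groups at or near 0 counts in the DAXX series and are no measure of size. Above 0 stood ZNF17 (0.79), ZNF524 (1.24), ZNF155 (1.32), ZNF749 (1.55), ZNF274 (1.59), ZNF121 (2.51) and ZNF564 (2.63). ZNF480 and ZNF493 were higher and ZNF541 was lower in both knockouts, to different extents.

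The etoposide effect differed between KO and WT cells, by the interaction term, for ZNF564 (−2.56), ZNF552 (−1.62), ZNF428 (−0.64), ZNF714 (1.06) and ZNF792 (1.07) in the DAXX series. In the ATRX series it differed for ZNF486 (−2.33), ZNF136 (−1.14), ZNF440 (−1.05), ZNF561 (−0.99), ZNF430 (−0.82), ZNF791 (−0.66), ZNF432 (−0.58) and ZNF226 (−0.46), each with a lower log2 fold change in ATRX_KO than in WT. ZNF486 was at or under the floor in WT control cells, so its value is no measure of size. No group has more than 3 libraries, so single libraries were not tested for standing apart.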

How the results depend on the processing

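Of 189 alternative counts of called zinc finger genes 174 stayed within 1.5 times the reported count. Of 1355 alternative results for named genes 1276 kept their direction and side of the threshold, 78 lost the call and 1 gained it, with 0 reversals. Medians were less stable. Of 184 alternative median log2 fold changes of these genes, 85 moved by at least the SD between replicates of the median, which was 0.02. Of 36 alternative subcluster medians, from genes with at least 1 CPM or from the split at 0.5 Mb, 4 moved by at least their own SD. The other alternatives are not in this count. With at least 10 counts in every library, the median of C3 in ATRX_KO went from 0.42 to 0.17. In DAXX_KO that of C5 went from −0.51 to 0.08 and that of C8 from 0.36 to 0.08. Requiring at least 10 counts in every library, which removes genes that are near 0 in a group, left 33 called in DAXX_KO (12 higher, 21 lower) and 57 in ATRX_KO (36 higher, 21 lower) in control cells, 49 in ATRX_KO with etoposide and 38 for the difference between the knockouts. It left C6 with 3 genes called higher in ATRX_KO and a median of 0.54. The DAXX interaction count was 10 with library totals alone and 8 without a filter, and 3 to 8 when each library was left out (3 without DAXX_WT etoposide replicate 1 or DAXX_KO control replicate 2, 8 without DAXX_KO etoposide replicate 2). The ATRX interaction count ranged from 4 to 13 (5 without ATRX_WT etoposide replicate 2 or 3 or ATRX_KO control replicate 2, 4 without ATRX_KO control replicate 1, 13 without ATRX_KO control replicate 3), and the count between WT cells from 4 to 7 (4 without DAXX_WT control replicate 3). Split at 0.5 Mb, the larger piece of C9 had medians of −0.32 (DAXX_KO) and −0.30 (ATRX_KO) on the log2 scale. With at least 1 CPM the ATRX_KO median was 0.95 in C4 and 0.54 in C8. Calls lost under at least 1 alternative include ZNF816 in DAXX_KO (DESeq2 and 4 omissions of a library), ZNF331, ZNF536 and ZNF550 in ATRX_KO, and ZNF404, ZNF530, ZNF837 and the interactions of ZNF486, ZNF440, ZNF792 and ZNF714. The cause was not tested. With the replicate block 54 genes were called in DAXX_KO and 93 in ATRX_KO in control cells, the interaction counts were 5 and 7, and no count moved by over 1.5 times. Depth limits genes under about 1 CPM, which rest on a few counts per library.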
